A study of Homo sapiens with 4 samples.

Results

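The collagen, laminin and integrin gene families were examined together with NPNT, which encodes the integrin ligand nephronectin. Genes were taken by symbol, as every collagen chain (COL followed by a number, A and a number), every laminin chain (LAMA, LAMB, LAMC), every integrin alpha chain (ITGA) and the integrin beta chains ITGB1 to ITGB8, with antisense genes left out. This gave 83 of the 60675 genes in the tables, made up of 44 collagen, 12 laminin and 26 integrin genes and NPNT.

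RNA was sequenced from 2 libraries of the HER2 L755S line (HER2 L755S 1 and 2) and 2 of the HER2 WT line (HER2 WT 1 and 2). Both are lines of MM134, a lobular breast cancer cell line, labelled by the form of the receptor tyrosine kinase HER2 that they carry, with L755S a substitution in its kinase domain. All 4 libraries came from cells deprived of estrogen for 7 days, in phenol red free medium with 5% charcoal-stripped serum. The sources used here do not state how HER2 was altered, whether each line is 1 clone, or whether libraries that share a line were grown separately. The p-values therefore reflect the spread between libraries, and that spread could be purely technical. Total expected counts ran from 27423247 to 31088422 per library, and mitochondrial transcripts took 4.03% and 13.5% of the counts in HER2 L755S 1 and 2, against 4.395% and 8.83% in HER2 WT 1 and 2. ERBB2, which encodes HER2, stood at 2443 and 1203 CPM (reads relative to library size) in HER2 L755S 1 and 2, against 1934 and 1936 CPM in HER2 WT 1 and 2. Markers of luminal epithelium (EPCAM, KRT8, KRT18, KRT19, GATA3 and 5 others) summed to 6877 and 7361 CPM in HER2 L755S and to 8156 and 7247 CPM in HER2 WT libraries. Of these 10, 1 was more than 2-fold lower in HER2 L755S within both replicate numbers, and 0 were more than 2-fold higher. The 9 basal or myoepithelial markers summed to 21.54 and 19.55 CPM in HER2 L755S and to 20.33 and 19.56 CPM in HER2 WT libraries. The 12 fibroblast and endothelial markers summed to between 0.861 and 1.21 CPM in every library, with THY1, PECAM1 and CDH5 at 0 in all 4, and the 11 leukocyte markers summed to between 0.379 and 1.03 CPM.

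Collagens are secreted as trimers of alpha chains. The fibrillar types build fibres, type IV forms the mesh of basement membranes, and the others anchor or decorate these networks. Laminins are basement membrane trimers with an alpha, a beta and a gamma chain, so all these kinds of chain are needed for secretion. Integrins are receptors made of an alpha and a beta chain, and the pairing sets the ligand: laminin, collagen, fibronectin, or cell surface ligands of other cells. The epithelium of breast ducts is bounded by a basement membrane of laminin and type IV collagen, to which integrins hold the cells.

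Of the 83 genes, 28 were expressed, taken as at least 1 TPM (a level scaled for transcript length and library total) in both libraries of a line. These were 12 collagens, 6 laminins, 9 integrins and NPNT. A total of 46 genes had enough counts to be tested between the lines, including all 28 that were expressed. The other 37 stayed at 30 counts or fewer in every library, and COL19A1, COL22A1, COL6A5, ITGAD and ITGAX had no count in any. A count of 0 still allows a level of up to 0.103 and 0.117 CPM in HER2 L755S 1 and 2 and of up to 0.0927 and 0.103 CPM in HER2 WT 1 and 2 (3 counts per library, counting error only).

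**Figure D1:**
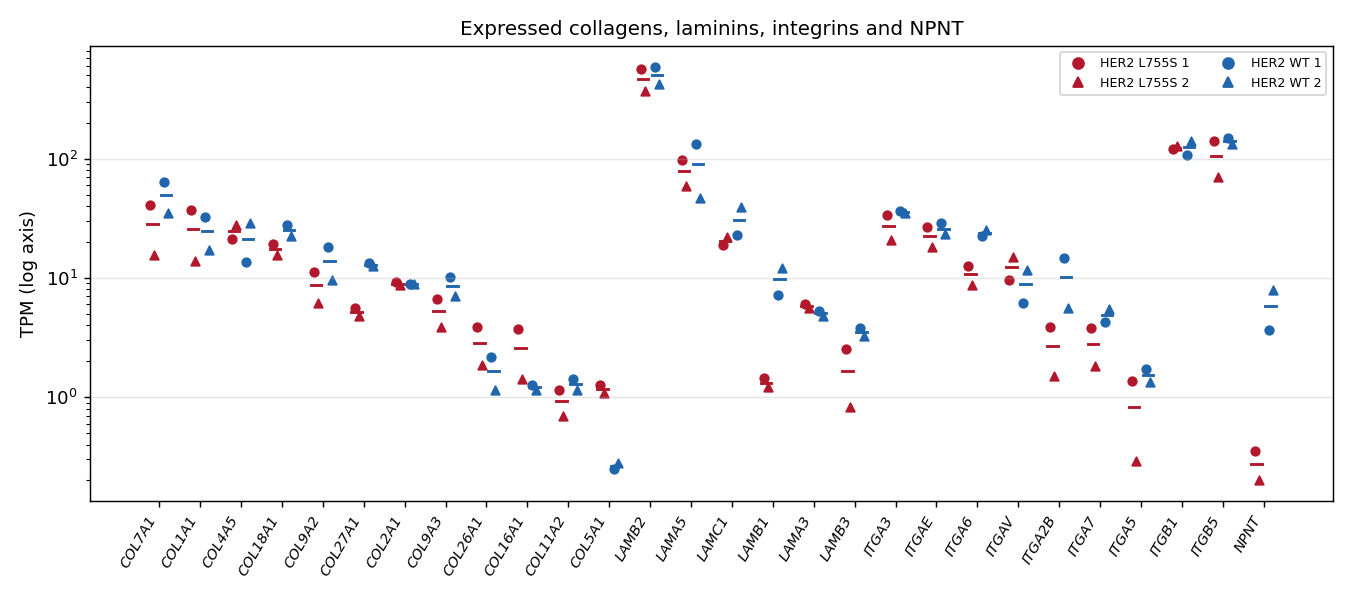
Levels of the 28 expressed genes, in TPM on a log axis, in each of the 4 libraries, with short lines at the mean of a line. LAMB2 stands highest, with 368.7 to 592 TPM, and NPNT, LAMB1 and COL5A1 show the widest gaps between the lines.

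The most abundant laminin chains were LAMA5 among the alpha, LAMB2 among the beta and LAMC1 among the gamma chains. On the TPM scale, the level of LAMB2 was 563 and 369 TPM in HER2 L755S and 592 and 422 TPM in HER2 WT libraries, the highest of all 83 genes. LAMA5 stood at 98.4 and 59.1 TPM in HER2 L755S and at 133 and 46.6 TPM in HER2 WT libraries, and LAMC1 at 18.8 and 21.9 TPM against 22.7 and 39.0 TPM. The lines overlapped for LAMB2 and LAMA5 on this scale. LAMA5 made up 94.2% and 91.2% of laminin alpha transcripts (as a share of TPM) in HER2 L755S and 96.1% and 90.5% in HER2 WT libraries. LAMA3 was present at 6.0 and 5.57 TPM in HER2 L755S and 5.29 and 4.77 TPM in HER2 WT libraries, and LAMB3 at 2.51 and 0.83 TPM against 3.83 and 3.26 TPM. LAMA1, LAMA2, LAMA4, LAMB4 and LAMC3 were too low to test, with 13 counts (LAMA1 in HER2 WT 2) the most in a library.

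LAMB1, the other widely expressed laminin beta chain, was the laminin that passed the test between the lines. Its level was 3.42 and 4.44 CPM in HER2 L755S 1 and 2 and 20.0 and 39.8 CPM in HER2 WT 1 and 2. Both HER2 L755S libraries lay well below both HER2 WT libraries. LAMB1 (ENSG00000091136, GRCh38 chromosome 7, 107923799 to 108003255, minus strand) fell 7.61-fold, a log2 fold change of -2.93 (SE 0.43, edgeR quasi-likelihood test, Benjamini-Hochberg adjusted p = 0.00723). Within a replicate number the log2 difference was -2.54 in pair 1 (HER2 L755S 1 minus HER2 WT 1) and -3.16 in pair 2 (HER2 L755S 2 minus HER2 WT 2). As LAMB2 is so much more abundant, LAMB1 made up 0.254% and 0.326% of laminin beta transcripts in HER2 L755S and 1.20% and 2.79% in HER2 WT libraries. LAMB2 took 99.3% and 99.4% in HER2 L755S and 98.1% and 96.4% in HER2 WT libraries. These shares depend on the transcript lengths of the authors' RSEM run, on average 1350 to 1852 bases for LAMB2 and 3275 to 4364 for LAMB1. A shorter length gives a higher TPM for the same counts. In CPM, which is not scaled for length, LAMB2 was at 714 and 412 in HER2 L755S and at 642 and 526 in HER2 WT libraries. LAMB2, LAMA5 and LAMC1 had log2 fold changes of -0.05 (SE 0.34), -0.24 (SE 0.40) and -0.49 (SE 0.36) and did not pass the test (edgeR, adjusted p = 0.998, 0.991 and 0.849).

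NPNT, a basement membrane protein with an integrin-binding motif, showed the largest decrease among the tested genes of these families. Its level was 0.410 and 0.428 CPM in HER2 L755S 1 and 2, or 12 and 11 counts, and 6.18 and 17.1 CPM in HER2 WT 1 and 2, or 200 and 497 counts. The HER2 L755S libraries were alike, and HER2 WT 2 was the highest of the 4. NPNT (ENSG00000168743, chromosome 4, 105894775 to 106004027, plus strand) fell 27.5-fold (log2 -4.78, SE 0.60, edgeR, adjusted p = 0.00389), with -3.86 in pair 1 and -5.26 in pair 2. ITGA8, whose product pairs with that of ITGB1 to form the main nephronectin receptor, had 2 counts in HER2 WT 1 and none in the other 3 libraries.

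ITGA4 was the integrin that passed the test. This chain pairs with those of ITGB1 and ITGB7 and binds VCAM1 and fibronectin, and it is best known from leukocytes. Its level was 0.137 and 0.195 CPM in HER2 L755S 1 and 2, or 4 and 5 counts, and 2.69 and 4.68 CPM in HER2 WT 1 and 2, or 87 and 136 counts. In HER2 L755S libraries it was thus just above the level that a count of 0 allows. ITGA4 (ENSG00000115232, chromosome 2, 181457202 to 181536187, plus strand) fell 21.8-fold (log2 -4.45, SE 0.63, edgeR, adjusted p = 0.00658), with -4.13 in pair 1 and -4.47 in pair 2. Its partner ITGB7, a low gene, had 4 and 4 counts in HER2 L755S and 21 and 22 counts in HER2 WT libraries, a log2 fold change of -2.23 (SE 0.73) that did not pass (edgeR, adjusted p = 0.207). The 11 leukocyte markers summed to 1.03 and 0.3895 CPM in HER2 L755S 1 and 2 and to 0.989 and 0.379 CPM in HER2 WT 1 and 2, so their sum followed the replicate number rather than the line. Of these, 5 had no count in any library, among them CD3E, CD3D and MS4A1, and PTPRC had at most 1. LYZ had the most, with 10 and 0 counts in HER2 L755S and 21 and 8 counts in HER2 WT libraries, while CD79A had 6 and 10 counts against 2 and 0. Their part in the decrease of ITGA4 was not tested.

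COL5A1 was the collagen that passed the test, and the only 1 of the 46 tested genes called higher. It encodes a chain of type V collagen, a minor fibrillar type that starts the assembly of type I fibres. Its level was 7.56 and 8.88 CPM in HER2 L755S 1 and 2 and 1.45 and 1.07 CPM in HER2 WT 1 and 2. The lines were well apart, with little spread within each. COL5A1 (ENSG00000130635, chromosome 9, 134641774 to 134844843, plus strand) rose 6.49-fold (log2 2.70, SE 0.44, edgeR, adjusted p = 0.0111), with 2.37 in pair 1 and 3.04 in pair 2. COL5A2, the other chain of the common type V trimer, was at 5.23 and 4.17 CPM in HER2 L755S, against 3.80 and 7.09 CPM in HER2 WT libraries, and the lines overlapped (log2 -0.21, SE 0.44, edgeR, adjusted p = 0.998). On the TPM scale the ratio of COL5A1 to COL5A2 was 1.27 and 1.39 in HER2 L755S and 0.333 and 0.209 in HER2 WT libraries.

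These 4 genes were 8.70% of the 46 tested, against 1.69% of all 16538 tested genes called in either direction, 0.738% higher and 0.949% lower. The share is a description only. NPNT was added to the families by name, and the genes were chosen with earlier results of these data known. ITGA4, with 4 and 5 counts in HER2 L755S libraries, passed the filter through HER2 WT, the line in which it was high. Each of the 4 was called in every alternative at an adjusted p of 0.05. The 4 lie on different chromosomes, and the tested genes within 2.5 Mb of each had median log2 fold changes near 0: -0.02 around COL5A1 (102 genes), 0.03 around ITGA4 (9 genes), 0.08 around LAMB1 (22 genes) and -0.09 around NPNT (12 genes).

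The 250 bases before the RefSeq start of each of the 4 genes are shown as the sequence next to the transcripts that differed (build GRCh38.p14, 5′ to 3′ on the gene's strand). Capitals mark GGGCGG or its reverse complement, the GC box bound by SP1 family factors.
NPNT (chr4:105895221-105895470, plus strand): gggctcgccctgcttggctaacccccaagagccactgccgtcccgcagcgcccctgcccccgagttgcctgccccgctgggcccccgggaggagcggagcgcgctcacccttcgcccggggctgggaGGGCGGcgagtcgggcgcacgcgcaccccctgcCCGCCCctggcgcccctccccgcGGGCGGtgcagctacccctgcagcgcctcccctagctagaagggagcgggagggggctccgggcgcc
ITGA4 (chr2:181457136-181457385, plus strand): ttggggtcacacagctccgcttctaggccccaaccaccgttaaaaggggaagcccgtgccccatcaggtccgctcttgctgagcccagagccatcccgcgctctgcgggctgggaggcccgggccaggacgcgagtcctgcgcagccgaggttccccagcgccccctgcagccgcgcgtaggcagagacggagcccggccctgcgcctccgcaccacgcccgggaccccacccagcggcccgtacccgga
LAMB1 (chr7:108003162-108003411, minus strand): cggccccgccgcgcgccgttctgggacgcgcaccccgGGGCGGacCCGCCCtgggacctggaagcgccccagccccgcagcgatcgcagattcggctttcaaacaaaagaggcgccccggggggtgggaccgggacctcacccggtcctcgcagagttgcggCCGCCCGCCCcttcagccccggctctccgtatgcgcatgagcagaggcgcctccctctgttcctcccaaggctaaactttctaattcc
COL5A1 (chr9:134641553-134641802, plus strand): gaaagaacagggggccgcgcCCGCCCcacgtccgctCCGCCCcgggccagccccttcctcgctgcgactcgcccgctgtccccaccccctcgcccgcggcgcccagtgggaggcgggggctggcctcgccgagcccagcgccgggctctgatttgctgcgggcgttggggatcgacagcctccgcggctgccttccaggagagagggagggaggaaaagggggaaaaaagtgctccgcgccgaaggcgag
The windows were rich in G and C, at 79.2% for NPNT, 72.8% for ITGA4, 70.4% for LAMB1 and 74.0% for COL5A1, against a median of 58.0% over the 27305 promoters in the RefSeq table. The GC box was found 3 times in NPNT, 4 times in LAMB1 (with 2 matches that overlap) and 2 times in COL5A1, and 42.3% of all promoters hold it. Searched on both strands, 7 other motifs had no match in these 4 windows: AGGTCA of estrogen and other nuclear receptors, TGACTCA of AP-1, CCGGAAG of ETS factors, the TATA box TATAAA, the E-boxes CACGTG and CACCTG, and GGAATG of TEAD factors. They are held by 12.1%, 4.16%, 8.82%, 11.1%, 6.49%, 17.5% and 11.9% of all promoters in that order. Of the 83 genes, 59 were in that table.

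**Figure D2:**
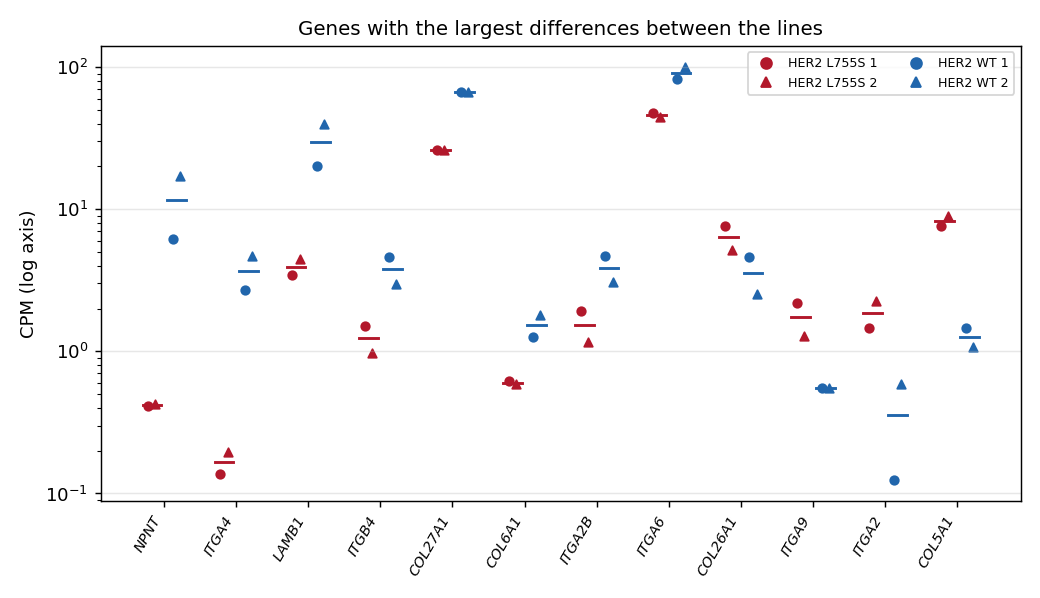
Levels in CPM on a log axis of the 12 genes whose log2 fold change was largest, out of tested genes with no overlap between the lines and at least 1 CPM on average, in order of fold change. The lines at the mean are far apart for NPNT, ITGA4, LAMB1 and COL5A1, and COL27A1 stands out for libraries of a line that almost coincide.

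Further genes kept the lines apart without passing the test. COL27A1, a fibrillar collagen of cartilage and other tissues, was at 26 and 25.9 CPM in HER2 L755S 1 and 2, against 67.0 and 66.7 CPM in HER2 WT 1 and 2. The libraries of a line nearly coincided. Its log2 fold change was -1.36 (SE 0.32, -1.36 in each pair), just outside the threshold (edgeR, adjusted p = 0.061). COL27A1 was called by DESeq2 (adjusted p = 0.0031) and by edgeR with no filter on low counts (adjusted p = 0.016). It was also called by edgeR with the replicate number as a block (adjusted p = 1.2e-04). It was not called when any 1 library was left out, with log2 fold changes of -1.365 to -1.353. ITGA6, a laminin receptor chain, was at 47.7 and 44.5 CPM in HER2 L755S, against 82.3 and 100.6 CPM in HER2 WT libraries (log2 -0.99, SE 0.32, edgeR, adjusted p = 0.191). ITGB4, which pairs with ITGA6 alone in hemidesmosomes, was at 1.50 and 0.974 CPM in HER2 L755S, against 4.63 and 2.96 CPM in HER2 WT libraries (log2 -1.61, SE 0.50, edgeR, adjusted p = 0.173). Its 2 pairs gave nearly the same value, -1.61 and -1.59. ITGB8, a partner of ITGAV that binds latent TGF-beta, had 7 and 9 counts in HER2 L755S and 34 and 45 counts in HER2 WT libraries (log2 -2.13, SE 0.65, edgeR, adjusted p = 0.158).

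The platelet chain ITGA2B was at 1.91 and 1.17 CPM in HER2 L755S, against 4.70 and 3.06 CPM in HER2 WT libraries (log2 -1.33), while its partner ITGB3 had no count in HER2 L755S and 3 and 2 counts in HER2 WT libraries. COL6A1, of the beaded filaments of type VI collagen, was at 0.615 and 0.584 CPM in HER2 L755S, against 1.27 and 1.79 CPM in HER2 WT libraries (log2 -1.34). On the higher side, the collagen receptor chain ITGA2 was at 1.47 and 2.26 CPM in HER2 L755S, against 0.124 and 0.585 CPM in HER2 WT libraries. Its log2 fold change of 2.40 (SE 0.73) did not pass (edgeR, adjusted p = 0.158). ITGA2 was called by edgeR with no filter (adjusted p = 0.0078) and with the replicate number as a block (adjusted p = 0.0088). It was not called by DESeq2 (adjusted p = 0.11). With 1 library left out, its log2 fold change ran from 1.657 to 3.886. ITGA9, which binds tenascin-C and other ligands, was at 2.19 and 1.29 CPM in HER2 L755S, against 0.556 and 0.551 CPM in HER2 WT libraries (log2 1.64, SE 0.58). COL26A1 was at 7.56 and 5.14 CPM in HER2 L755S, against 4.57 and 2.51 CPM in HER2 WT libraries, a gap that did not pass either (log2 0.84, SE 0.45). The edgeR adjusted p was 0.295 for ITGA2B, 0.418 for COL6A1, 0.256 for ITGA9 and 0.628 for COL26A1.

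**Figure D3:**
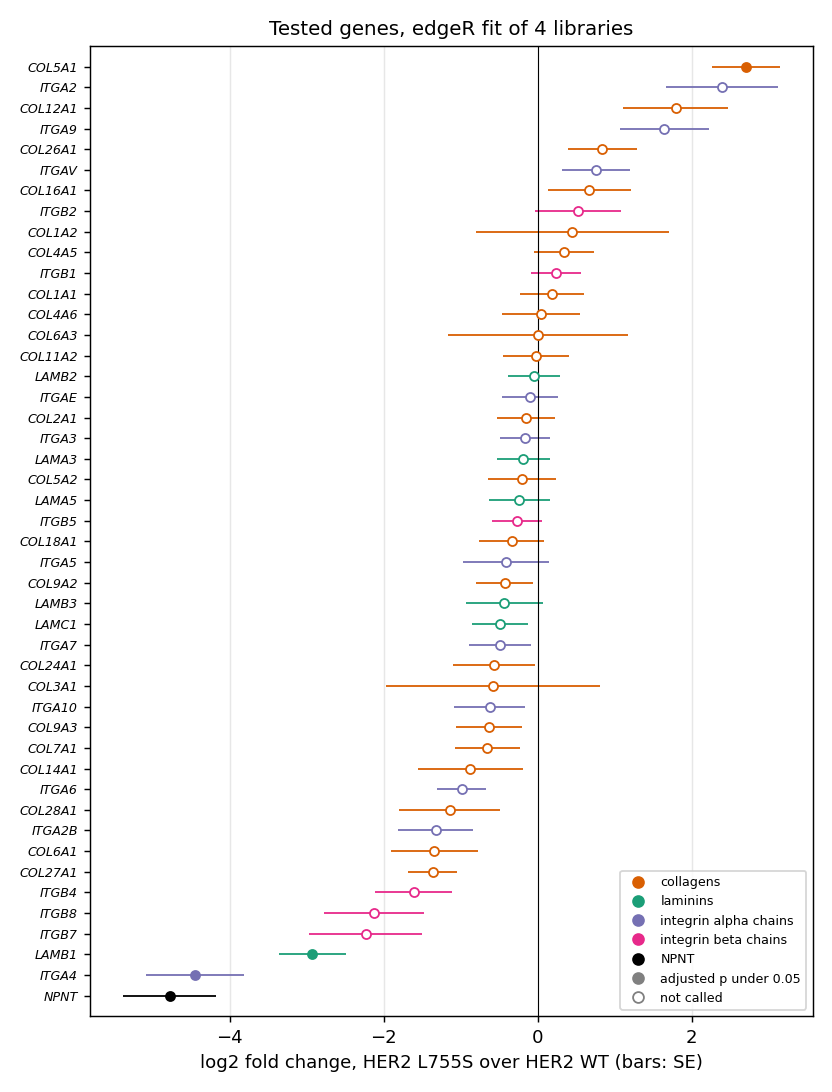
Log2 fold change of HER2 L755S over HER2 WT for the 46 tested genes from the edgeR fit, with bars of 1 SE, filled where the adjusted p was under 0.05. COL5A1 lies at 2.70, LAMB1, ITGA4 and NPNT lie at -2.93, -4.45 and -4.78, and most others lie between -1 and 1.

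Over the 46 genes that passed the filter, 14 had a positive and 32 a negative log2 fold change, with a median of -0.30 against 0.003 over all tested genes. The median was -0.19 in pair 1 and -0.41 in pair 2. Laminins had a median of -0.34 (6 genes), integrins -0.41 (17 genes) and collagens -0.18 (22 genes). Without overlap between the lines, 6 of the 46 were higher (13%, against 16.9% of all tested genes) and 15 were lower (32.6%, against 19.3%). More than 2-fold higher in both pairs were COL5A1, ITGA2, COL12A1 and ITGA9, which is 8.70% of the 46, against 2.85% of all tested genes. More than 2-fold lower in both pairs were NPNT, ITGA4, LAMB1, ITGB7, ITGB8, ITGB4, COL27A1, ITGA2B and COL6A1, which is 19.6% of the 46, against 4.6% of all tested genes. These shares describe the genes that had enough counts, some of which passed the filter through the line in which they were high. The pairs pointed in opposite directions for 9 genes, LAMB2, LAMA3, LAMB3, ITGA5, COL2A1, COL4A6, COL5A2, COL6A3 and COL11A2.

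**Figure D4:**
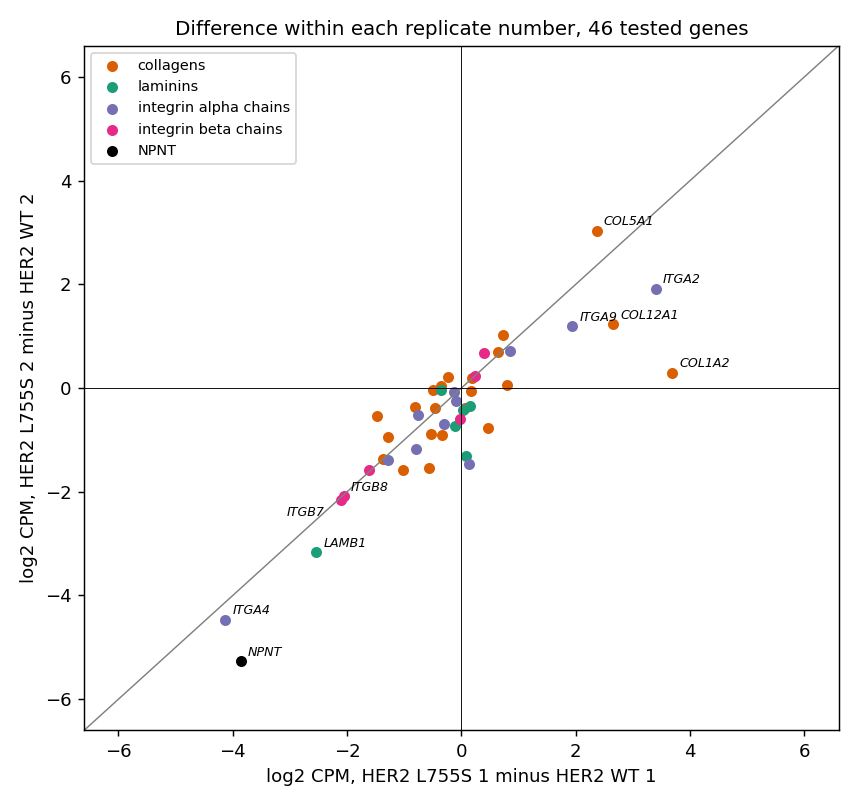
Differences in log2 CPM between the lines within replicate number 1 (horizontal axis) and number 2 (vertical axis) for the 46 tested genes, with the grey line at equal values. NPNT, ITGA4, LAMB1, ITGB7 and ITGB8 lie below -2 and COL5A1 above 2 on both axes, while COL1A2 lies at 3.69 on the first and 0.30 on the second.

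Of the abundant integrin chains, ITGB1, ITGB5, ITGAV and ITGA3 overlapped between the lines, whereas ITGA6, already described, did not. ITGB1, the partner of most alpha chains, was at 306 and 433 CPM in HER2 L755S, against 259 and 369 CPM in HER2 WT libraries (log2 0.24, SE 0.32, edgeR, adjusted p = 0.978). The libraries of number 2 were the higher ones in both lines. ITGB5, which pairs with ITGAV and binds vitronectin, was at 226 and 144 CPM in HER2 L755S, against 229 and 217 CPM in HER2 WT libraries (log2 -0.27, SE 0.32, edgeR, adjusted p = 0.959). On the TPM scale the level of ITGB1 averaged 124 ± 4.85 TPM in HER2 L755S and 125 ± 23.2 TPM in HER2 WT cells (SD, n = 2), and that of ITGB5 averaged 106 ± 50.3 and 141 ± 12.3 TPM. They exceeded the other beta chains, as the mean TPM over the 4 libraries was 1.34 for ITGB4 and 0.637 for ITGB2.

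ITGAV itself was at 50.9 and 100.3 CPM in HER2 L755S, against 28.1 and 61.1 CPM in HER2 WT libraries, and the lines overlapped (log2 0.76, SE 0.44, edgeR, adjusted p = 0.69). Within each number HER2 L755S was the higher, by 0.85 in pair 1 and 0.71 in pair 2 on the log2 scale. ITGB6, an epithelial partner of ITGAV, had 9 and 30 counts in HER2 L755S and 2 and 5 in HER2 WT libraries. It did not pass the filter with all 4 libraries, and with no filter on low counts it was not called. Without HER2 L755S 1 it passed the filter through HER2 L755S 2 alone, with a log2 fold change of 3.29 (SE 1.02). That value rests on 1 HER2 L755S library. The laminin receptor chain ITGA3 was at 91.0 and 66.6 CPM in HER2 L755S, against 97.6 and 78.9 CPM in HER2 WT libraries (log2 -0.16, SE 0.32, edgeR, adjusted p = 0.998). The ratio of ITGA6 to ITGA3, in TPM, was 0.376 and 0.420 in HER2 L755S and 0.615 and 0.725 in HER2 WT libraries, without overlap; 2 against 2 libraries cannot give an exact two-sided permutation p below 0.333. ITGAE, which pairs with ITGB7 and binds E-cadherin, averaged 22.4 ± 6.0 TPM in HER2 L755S and 26 ± 3.79 TPM in HER2 WT cells (SD, n = 2). That level comes from only 277 and 210 counts in HER2 L755S and 336 and 249 counts in HER2 WT libraries, assigned by the authors' RSEM run to transcripts of 678 to 697 bases on average.

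The most abundant collagens on the TPM scale were COL7A1, COL1A1, COL4A5 and COL18A1. COL7A1, which forms the anchoring fibrils below epithelia, was at 69.8 and 31.7 CPM in HER2 L755S, against 101 and 59.0 CPM in HER2 WT libraries (log2 -0.66, SE 0.42, edgeR, adjusted p = 0.768). COL18A1, a basement membrane collagen and the source of endostatin, was at 69.5 and 42.3 CPM in HER2 L755S, against 98.2 and 43.3 CPM in HER2 WT libraries (log2 -0.34, SE 0.42, edgeR, adjusted p = 0.964). For both genes the number 1 library was the higher in each line and the lines overlapped.

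Type IV collagen was represented by COL4A5. Its level was 21.1 and 27.9 TPM in HER2 L755S and 13.5 and 28.7 TPM in HER2 WT libraries, or 2802 and 3224 counts against 1779 and 3481 counts. The log2 fold change was 0.34 (SE 0.39, edgeR, adjusted p = 0.958), and the 2 lines overlapped. COL4A6, its neighbour on the X chromosome, was at 0.33 and 0.37 TPM in HER2 L755S and at 0.28 and 0.45 TPM in HER2 WT libraries. The TPM of COL4A5 was 64.1 and 75.5 times that of COL4A6 in HER2 L755S and 48.2 and 63.8 times in HER2 WT libraries. COL4A1 and COL4A2, the chains of most basement membranes, had at most 6 counts in any library, and COL4A3 and COL4A4 at most 5.

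The type IV genes lie in head-to-head pairs that share the stretch between their starts. By RefSeq the starts of COL4A6 and COL4A5 are 379 bases apart, with 126 bases between those of COL4A1 and COL4A2 and 418 bases between those of COL4A4 and COL4A3. The 250 bases before COL4A5 are shown because the 2 genes that start on either side of this stretch had such different levels; they hold none of the 8 motifs, and 51.2% are G or C.
COL4A5 (chrX:108439588-108439837, plus strand): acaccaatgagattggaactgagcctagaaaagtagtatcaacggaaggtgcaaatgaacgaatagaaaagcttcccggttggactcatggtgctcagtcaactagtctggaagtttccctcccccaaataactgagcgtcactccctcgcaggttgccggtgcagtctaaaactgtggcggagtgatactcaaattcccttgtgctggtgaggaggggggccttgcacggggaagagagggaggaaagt

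Type I and type III collagen genes were tied to the replicate number. COL1A1 was at 114 and 58.5 CPM in HER2 L755S 1 and 2, against 100.5 and 51.0 CPM in HER2 WT 1 and 2, with a log2 fold change of 0.19 (SE 0.42, edgeR, adjusted p = 0.998). COL1A2, the partner chain of type I collagen, had 6 and 49 counts in HER2 L755S 1 and 2 and 0 and 45 counts in HER2 WT 1 and 2. The fibrillar gene COL3A1 had 0 and 32 counts in HER2 L755S and 1 and 53 counts in HER2 WT libraries. COL6A3, of type VI collagen, had 2 and 39 counts in HER2 L755S and 3 and 43 counts in HER2 WT libraries. COL1A2, COL3A1 and COL6A3 were thus nearly confined to the number 2 library of each line, while COL1A1 was the lower in those libraries.

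These 3 were the tested collagen, laminin and integrin genes more than 2-fold higher in number 2 than in number 1 in both lines (6.52% of the 46, against 1.35% of all tested genes). The share is a description only, as all 3 passed the filter through the number 2 libraries, in which they were high. Their log2 fold changes between the lines were 0.45 for COL1A2, -0.58 for COL3A1 and 0.01 for COL6A3, with an SE over 1 for each and none passing the test (edgeR, adjusted p = 0.998, 0.998 and 1). Without HER2 WT 2 COL1A2 was called, and without HER2 L755S 2 COL3A1 was called, in fits in which 1 line had only its number 1 library. The 12 fibroblast and endothelial markers summed to 1.03 and 1.05 CPM in HER2 L755S 1 and 2 and to 1.21 and 0.861 CPM in HER2 WT 1 and 2. Within that list PDGFRA, LUM and FAP had, like the 3 collagens, more counts in number 2. They had none in HER2 L755S 1 and HER2 WT 1, against 3, 2 and 4 counts in HER2 L755S 2 and 4, 2 and 1 counts in HER2 WT 2. DCN had 2 and 4 counts in HER2 L755S and 1 and 2 counts in HER2 WT libraries, and THY1 had none. The endothelial gene VWF, with 16 and 6 counts in HER2 L755S and 9 and 5 counts in HER2 WT libraries, and PDGFRB, with 3 and 2 counts against 7 and 5, were lower in number 2. The part of fibroblast RNA in the counts of the 3 collagens was not tested. In these bulk RNA samples, fewer cells that express a gene and less of its RNA per cell cannot be told apart.

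**Figure D5:**
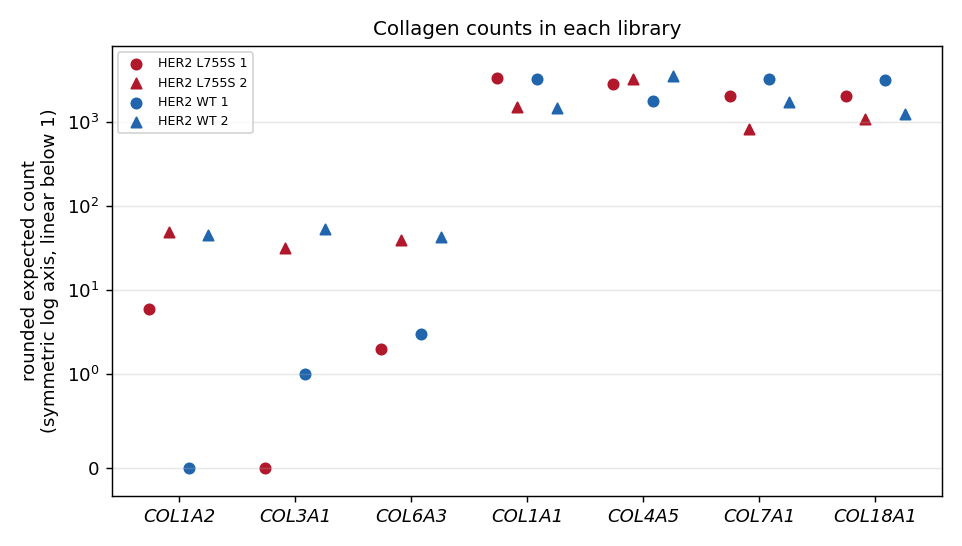
Rounded expected counts of 7 collagen genes in each library, on a symmetric log axis that is linear below 1. COL1A2, COL3A1 and COL6A3 have 32 to 53 counts in the number 2 libraries and 0 to 6 in the number 1 libraries of either line, whereas COL1A1, COL4A5, COL7A1 and COL18A1 have 815 or more in each.

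The cartilage-type collagens were present at lower levels. COL9A2, a chain of type IX collagen, which sits on the surface of fibres, was at 22.6 and 15.2 CPM in HER2 L755S, against 31 and 19.9 CPM in HER2 WT libraries. Its partner COL9A3 was at 3.86 and 3.31 CPM in HER2 L755S, against 6.83 and 4.27 CPM in HER2 WT libraries, without overlap (log2 -0.63, SE 0.43, edgeR, adjusted p = 0.806). COL9A1 of the same trimer had at most 7 counts. COL2A1, the main fibrillar chain of cartilage, was the steadiest of the expressed collagens on the TPM scale, at 9.21 and 8.65 TPM in HER2 L755S and at 8.91 and 8.81 TPM in HER2 WT libraries. As for ITGAE, this level rests on few counts (158 to 253 per library) assigned to transcripts of 940 to 1381 bases on average. COL12A1, which binds fibres of type I collagen, had 37 and 36 counts in HER2 L755S and 6 and 17 counts in HER2 WT libraries (log2 1.79, SE 0.68, edgeR, adjusted p = 0.314).

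The other tested genes of these families were low and did not pass. COL11A2, COL14A1, COL16A1, COL24A1, COL28A1, ITGA5, ITGA7, ITGA10 and ITGB2 had 7 to 185 counts in a library, with log2 fold changes from -1.14 for COL28A1 to 0.67 for COL16A1. ITGA5, the alpha chain of the fibronectin receptor, had 119 and 31 counts in HER2 L755S and 120 and 97 counts in HER2 WT libraries, so its level was set apart by HER2 L755S 2. COL14A1 lies on chromosome 8, and its log2 fold change of -0.88 (SE 0.69) stands beside a median of -0.38 for that chromosome. The collagens too low to test, besides those already named, were COL10A1, COL11A1, COL13A1, COL15A1, COL17A1, COL20A1, COL21A1, COL23A1, COL25A1, COL5A3, COL6A2, COL6A6, COL8A1 and COL8A2, with at most 15 counts in a library. The integrins too low to test, besides those named, were ITGA1 and ITGA11, which bind collagen, and ITGAL and ITGAM of leukocytes, with at most 13 counts.

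Of 125 other genes of the matrix and of adhesion, 94 were tested, and edgeR called 2 higher and 4 lower, which is 6.38% of the 94, against the 1.69% of all tested genes. This share too is a description only. The lists were chosen with earlier results of these data known, and POSTN passed the filter through HER2 L755S, the line in which it was high. Single lists of 14 to 27 tested genes had 1 or 2 called, too few to read against that share. POSTN, which encodes the integrin ligand periostin, had 714 and 642 counts in HER2 L755S and 2 and 4 counts in HER2 WT libraries. It was the called gene of 15 tested in the list of other basement membrane proteins and integrin ligands, with a log2 fold change of 7.91 (SE 0.54). FERMT2, an integrin activator of the kindlin family, was at 22.5 and 38.8 CPM in HER2 L755S, against 5.10 and 10.3 CPM in HER2 WT libraries and rose by 1.99 on the log2 scale (SE 0.44, edgeR, adjusted p = 0.0487). FERMT2 lost its call without HER2 WT 1 (0.12), without HER2 L755S 2 (0.064), with no scaling (0.056) and without mitochondrial genes (0.051), in a range from 7.1e-06.

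PARVA, a parvin that links integrins to actin, was at 1.44 and 0.273 CPM in HER2 L755S, against 9.92 and 11.7 CPM in HER2 WT libraries and fell by 3.64 (SE 0.63, edgeR, adjusted p = 0.0155). These were the called genes among 27 tested in the list of integrin adaptors. PARVA lies on chromosome 11, and the 27 tested genes within 2.5 Mb of it had a median log2 fold change of -0.52. The part of that region in the decrease was not tested.

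In the list of collagen maturation 1 of 20 tested genes was called. PLOD2, a lysyl hydroxylase of collagen, was at 1.16 and 1.95 CPM in HER2 L755S, against 6.02 and 9.99 CPM in HER2 WT libraries and fell by 2.36 (SE 0.48, edgeR, adjusted p = 0.034), a call that was lost without HER2 WT 2 (0.064, in a range from 1.1e-04). Of 18 tested matrix receptors outside the integrins, the called gene was the endocytic collagen receptor gene MRC2, at 1.33 and 0.545 CPM in HER2 L755S, against 11.7 and 7.20 CPM in HER2 WT libraries. It fell by 3.32 (SE 0.54, edgeR, adjusted p = 0.0105). Of 14 tested proteases and inhibitors, the called gene was the membrane metalloproteinase gene MMP16, at 7.21 and 7.91 CPM in HER2 L755S, against 23.3 and 42.4 CPM in HER2 WT libraries. It fell by 2.12 (SE 0.39, edgeR, adjusted p = 0.0222), and lost its call without HER2 WT 2 (0.056, in a range from 1.4e-05). MMP16 lies on chromosome 8, on which the tested genes had a median log2 fold change of -0.38, and the part of that shift was not tested.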

How the data were processed

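Per the labels' protocols, poly(A) RNA was selected from 250 ng of total RNA and sequenced on a NovaSeq instrument. Per the file headers, the deposited tables are RSEM output of the authors. They hold 2 values used here for each gene, the authors' expected count (estimated reads, not always whole) and the authors' TPM. STAR, edgeR and GRCh38 are named, without version or role, per the submitters' processing notes. The annotation release and strand setting are not given in the sources used here, and genes that overlap on opposite strands may share reads. Expected counts were not whole for 9.53% to 11.5% of genes.

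Expected counts were rounded. Of 60675 genes, 16538 passed filterByExpr and were fitted together with edgeR 4.0.16 in R 4.3.3 (TMM scaling, glmQLFit and glmQLFTest, two-sided, no term for the replicate number), with Benjamini-Hochberg adjustment over all of them and a threshold of 0.05. The test was tried on simulated counts, drawn with the same spread for every gene and no effect of the replicate number. That trial does not cover libraries that deviate together by number. Groups and numbers were taken from the sample titles. A positive fold change means higher in HER2 L755S. CPM values use TMM-scaled totals and no prior count, and differences within a pair use log2 CPM with a prior count of 0.5. TPM was used only to set levels of genes side by side and was not tested. Positions are from GENCODE 29 on GRCh38, and promoter sequences are from RefSeq on GRCh38.p14, at the first listed start of each gene.

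Named genes are all called ones, the 4 with the highest TPM among collagens, laminins, integrin alpha and integrin beta chains, the 12 with the largest fold change without overlap at 1 CPM or more, chosen chain partners, and called genes of 5 further lists. Others were named after their values were seen. The genes and lists were chosen with earlier results of these data known. Alternatives were DESeq2 1.42.0 and its size factors, no scaling, voom in limma 3.58.1, no filter, a filter of 50 counts in 2 libraries, an adjusted p of 0.01, a block for the replicate number, leaving out each library, TPM thresholds of 0.5 and 5, and a prior count of 2. A fit without mitochondrial genes was added after the data were seen. Some genes of the families and lists are not reported here by name.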

Additional observations from a re-analysis of the deposited data

How the results depend on the processing

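COL5A1, ITGA4, LAMB1 and NPNT kept their calls in each of the alternatives tried, other than the threshold of 0.01, at which COL5A1 was not called. With edgeR at that threshold 0 members of the families were called higher, against 4 higher at an unadjusted p under 0.05 and 1 by DESeq2 at 0.05, and the other lists had 1 higher and 0 lower gene, against 6 and 14 at an unadjusted p under 0.05 and 4 and 4 by DESeq2. No filter gave 2 higher genes of the families, and leaving out 1 library gave 1 to 3 higher and 3 to 4 lower. With the replicate number as a block 12 were called, 3 higher and 9 lower, or 26.1% of the 46, in a fit that called 10.5% of all tested genes (against 8.70% and 1.69% without the block). These were the 4 above and COL27A1, COL7A1, ITGA2, ITGA2B, ITGA6, ITGAV, ITGB4 and ITGB8. The labels do not say what the number stands for. The deviations from the line means of same-numbered libraries correlated at 0.425 over all tested genes and 0.865 over the 46, a hint from 2 pairs only. Of the 46, COL1A2, COL3A1 and COL6A3 differed most between the numbers, by log2 3.115 to 6.2 in HER2 L755S and 3.769 to 6.51 in HER2 WT. They were nearly absent from the number 1 libraries, and the correlation without them was not tested.

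Over all tested genes, 122 were called higher and 157 lower. There were 276 and 309 with DESeq2, 328 and 431 with no filter, 725 and 1018 with the block, 49 and 49 at 0.01, and from 160 to 220 higher and 184 to 328 lower without 1 library, where the spread of that line was taken from the other. The other lists had 2 higher and 4 lower genes, with 1 higher with no scaling and without mitochondrial genes, 4 higher with DESeq2, 5 higher with no filter, 8 higher and 15 lower with the block, and 2 to 3 higher and 2 to 6 lower without 1 library. Why these counts moved was not tested. No named gene that was called in either fit changed direction. Expressed genes numbered 34 at 0.5 TPM and 20 at 5 TPM, against 28 at 1 TPM. With 4 libraries, genes under about 50 counts were measured imprecisely, and 37 of the 83 could not be tested.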

Other observations

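A few genes of the other matrix lists, chosen after their values were seen, kept the lines apart without passing the test. P3H3, a collagen prolyl hydroxylase, was at 89.5 and 74.4 CPM in HER2 L755S, against 34.9 and 22.9 CPM in HER2 WT libraries (log2 1.50, SE 0.35, edgeR, adjusted p = 0.0597). ADAMTS5, a protease of proteoglycans, had 40 and 44 counts in HER2 L755S and 3 and 8 counts in HER2 WT libraries (log2 3.05, SE 0.71, edgeR, adjusted p = 0.0602). CD44, a receptor of hyaluronan, was at 67.6 and 62.3 CPM in HER2 L755S, against 112 and 92.6 CPM in HER2 WT libraries (log2 -0.66, SE 0.31, edgeR, adjusted p = 0.507). CD44 lies on chromosome 11, on which the tested genes had a median log2 fold change of -0.266, and the part of that shift was not tested.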
